A study of Mus musculus with 6 samples.

Results

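The 10 genes described here are Trp53, which encodes the tumour suppressor p53, and 9 genes that p53 is known to activate: Mdm2, Ccng1, Bax, Phlda3, Eda2r, Trp53inp1, Zmat3, Sesn1 and Btg2. They were chosen by symbol, and like the gene lists below they were chosen with earlier results of these data known. All 10 were found among the 17450 gene symbols of the deposited table and passed the filter on low values (1 FPKM or more in 3 or more of the 6 libraries), as did 11427 genes in all. The RNA came from MLECs, cultured endothelial cells of mouse lung vessels, kept in EGM-2 medium with serum and given no treatment. Transcripts known from macrophages, fibroblasts and epithelial cells were also present, as described below. Summed over the listed markers, macrophage and fibroblast transcripts each exceeded endothelial ones in every library. Macrophage markers averaged 1.99% of summed FPKM in HEY1-3KR KI and 1.55% in HEY1-WT KI, and endothelial markers 0.162% and 0.0989%. Such sums depend on the genes listed and give no share of cells, but the values below cannot be assigned to endothelial cells alone. There were 3 libraries labelled HEY1-3KR KI and 3 labelled HEY1-WT KI. In both genotypes the knock-in, written HEY1-3KR iEC-KI or HEY1-WT iEC-KI, was combined with a Hey1 iEC-KO allele, so no library has an unmanipulated Hey1 background. HEY1 is a transcriptional repressor induced by Notch. Names such as 3KR usually stand for lysines replaced by arginines, but neither 3KR nor iEC is spelled out in the labels. The labels give no Cre driver, no number or age of mice and no culture date, and whether replicate libraries stand for separate animals, cultures or preparations is also unstated. The p-values below therefore cover only library-to-library spread, part of which may be technical, and a batch that ran with genotype cannot be told apart from it.

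p53 is a transcription factor that is kept scarce in unstressed cells and accumulates after DNA damage, oncogene activity or other stress. It then switches on genes that halt the cell cycle, repair DNA, alter metabolism or kill the cell, and it also switches on its own inhibitor Mdm2, a ubiquitin ligase that marks p53 for destruction. The level of p53 protein is set mainly by this destruction, so Trp53 mRNA and the activity of p53 need not move together. In endothelium, p53 is known for restraining proliferation and for its rise in ageing and senescent vessels. In human cells, HEY1 has been reported to raise p53 activity by repressing MDM2.

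In HEY1-3KR KI libraries 7 of the 10 genes were lower than in HEY1-WT KI libraries, namely Eda2r, Trp53inp1, Ccng1, Zmat3, Phlda3, Bax and Mdm2, with HEY1-3KR KI means between 0.477 (Eda2r) and 0.640 (Bax) of the HEY1-WT KI means. Sesn1 was 1.55-fold higher in HEY1-3KR KI and Trp53 1.12-fold higher, and Btg2 did not pass the test. The test was limma on log2(FPKM + 1), with p-values adjusted over all tested genes by the Benjamini-Hochberg method and a threshold of 0.05. FPKM is a level corrected for transcript length and for the size of the library. The same test called 53.2% of all tested genes, 29.9% as higher and 23.4% as lower in HEY1-3KR KI, so a called gene is by itself an ordinary event in this comparison. The balance of these calls depended on scaling, with 3413 higher and 2671 lower genes as deposited, 3018 and 3096 with median-of-ratios scaling, and 2912 and 3292 with quantile normalization. The median log2 fold change of the 10 genes was -0.66, against 0.02 over all tested genes. The 3 libraries of each genotype did not overlap for 7 of the 10 genes (61.2% of all tested genes), and for 6 of them HEY1-3KR KI was the lower side (27.0% of all tested genes).

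**Figure D1:**
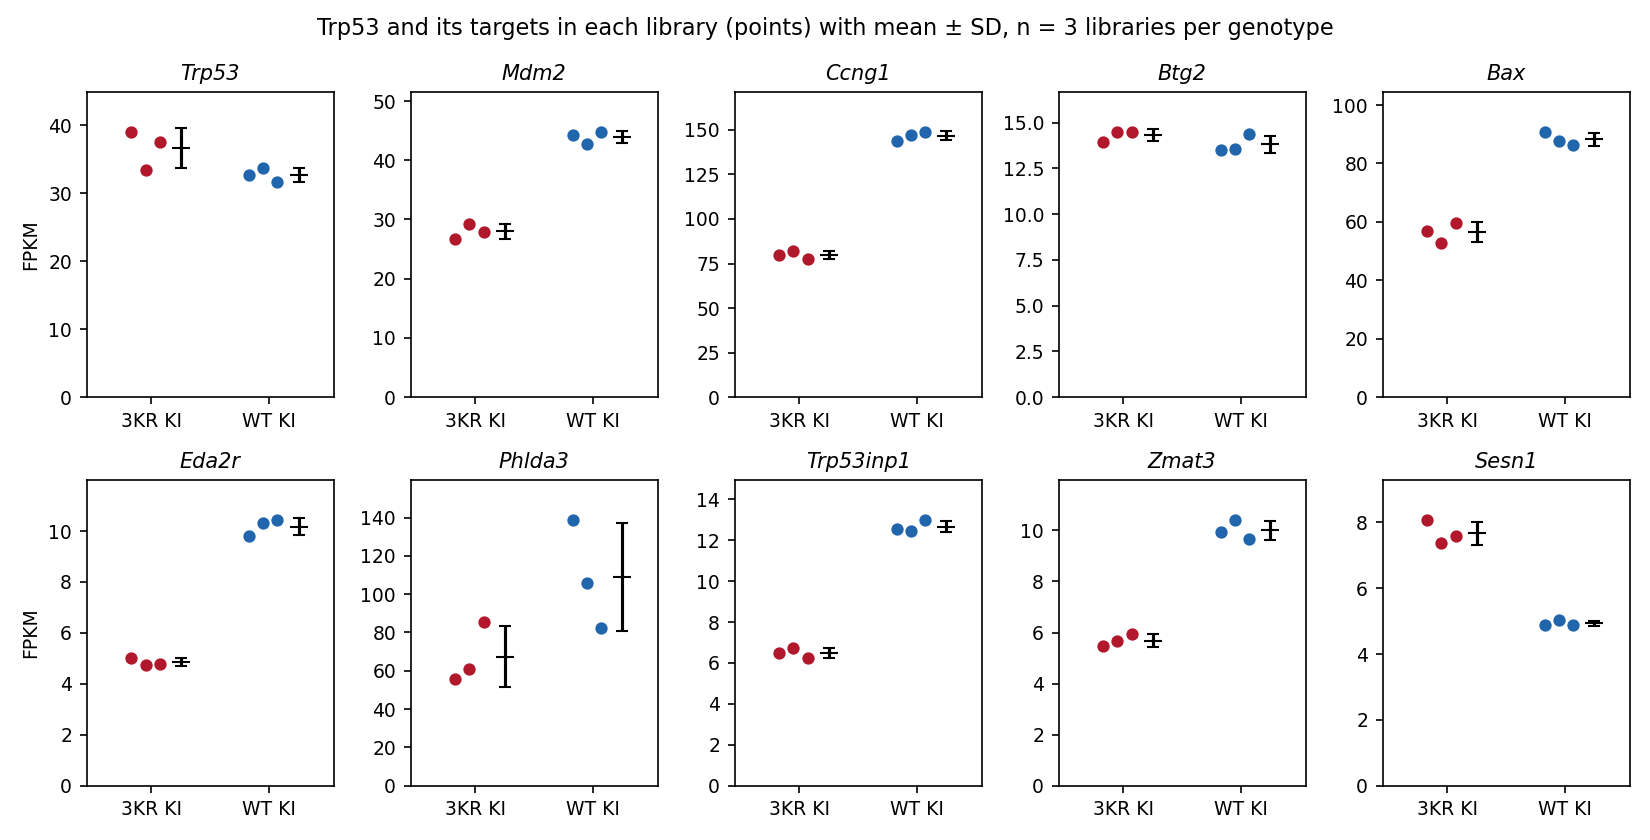
FPKM of the 10 genes in each library, with HEY1-3KR KI in red and HEY1-WT KI in blue; each point is 1 library, the black mark is the mean with its SD (n = 3 libraries), and each panel has its own axis from 0. The HEY1-3KR KI points lie below all HEY1-WT KI points for Mdm2, Ccng1, Bax, Eda2r, Trp53inp1 and Zmat3 and above them for Sesn1, while the groups overlap for Trp53, Btg2 and Phlda3.

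p53 binds DNA as a tetramer, at paired copies of a half-site of 10 bases. The half-site consensus, whose pattern reads the same on both strands, was searched in promoter sequences from RefSeq (GRCm38.p6), each running from 250 bases before to 50 bases after a start site. Promoters were found for 8 of the 10 genes, and those of Trp53, Mdm2, Ccng1, Bax and Sesn1 held an exact half-site, as did 8.36% of all 32851 promoters. Sesn1 had 2 promoters in the set, the half-site stood in the downstream one, and no gene had more than 1. The half-site with 40 bases on either side is shown for these 5 genes, because 3 of them fell in HEY1-3KR KI, Sesn1 rose and Trp53 is the regulator itself. Each run is written from 5′ to 3′ on the strand of the gene and ends before the start site, and capitals mark the half-site. The Trp53 run is chr11:69580244-69580333 on the plus strand, with the half-site beginning 75 bases before the start. The Mdm2 run is chr10:117710895-117710984 on the minus strand, with the half-site beginning 186 bases before the start. The Ccng1 run is chr11:40755422-40755511 on the minus strand, with the half-site beginning 185 bases before the start. The Bax run is chr7:45467050-45467139 on the minus strand, with the half-site beginning 201 bases before the start. The Sesn1 run is chr10:41887226-41887315 on the plus strand, with the half-site beginning 173 bases before the start.
Trp53: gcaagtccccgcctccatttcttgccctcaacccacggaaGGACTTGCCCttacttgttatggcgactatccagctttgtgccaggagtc
Mdm2: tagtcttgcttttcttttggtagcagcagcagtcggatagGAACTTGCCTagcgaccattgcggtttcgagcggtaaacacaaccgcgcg
Ccng1: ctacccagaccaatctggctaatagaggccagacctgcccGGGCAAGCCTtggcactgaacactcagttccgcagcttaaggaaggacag
Bax: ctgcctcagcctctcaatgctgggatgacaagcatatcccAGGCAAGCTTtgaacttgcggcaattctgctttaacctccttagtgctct
Sesn1: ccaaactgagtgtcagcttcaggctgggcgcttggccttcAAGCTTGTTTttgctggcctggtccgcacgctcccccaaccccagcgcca
Such matches describe the letters of the window and not binding, and the known p53 sites of Mdm2 lie in its first intron, outside this window. HEY proteins bind E-boxes, and the same windows were searched on both strands for the palindrome CACGTG. This hexamer stood once in the promoters of Trp53 and Eda2r and 2 times in that of Bax, in no case overlapping the half-site, and in 7.15% of all promoters. The related E-box CACGCG, searched on both strands, was in no window of the 8 genes, and 15.4% of all promoters held at least 1 of these E-boxes.

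Trp53 (chromosome 11, 69580348 to 69591873, plus strand, GRCm38) read 39.0, 33.4 and 37.5 FPKM in HEY1-3KR KI libraries, against 32.7, 33.7 and 31.6 FPKM in HEY1-WT KI libraries. One HEY1-3KR KI library, replicate 2, lay within the range of the HEY1-WT KI libraries and the groups overlapped. The means were 36.6 ± 2.89 FPKM in HEY1-3KR KI and 32.6 ± 1.05 FPKM in HEY1-WT KI (SD, n = 3 each), a log2 fold change of 0.16 ± 0.0571 (SE; limma, Benjamini-Hochberg adjusted p = 0.0421). This call was lost in 11 of 14 alternative settings, with adjusted p between 0.00429 and 0.146 over the 14, among them leaving out either HEY1-3KR KI replicate 1 or 3 (adjusted p = 0.146 and 0.105) or any HEY1-WT KI library (0.0829, 0.053 and 0.125). The direction was the same in all 14. Trp63 and Trp73, the other genes of the p53 family, reached at most 0.0627 and 0.0445 FPKM in any library and were not tested.

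Mdm2 (chromosome 10, 117688875 to 117710758, minus strand), the ubiquitin ligase that ends p53 activity, read 26.8, 29.3 and 27.9 FPKM in HEY1-3KR KI libraries, against 44.2, 42.8 and 44.8 FPKM in HEY1-WT KI libraries. Every HEY1-3KR KI library was below every HEY1-WT KI library. The means were 28.0 ± 1.24 FPKM in HEY1-3KR KI and 43.9 ± 1.02 FPKM in HEY1-WT KI (SD, n = 3 each), a log2 fold change of -0.63 ± 0.0414 (limma adjusted p = 3.23e-06). Set against Trp53 in the same library, Mdm2 amounted to 0.686, 0.875 and 0.744 of the Trp53 FPKM in HEY1-3KR KI and to 1.35, 1.27 and 1.42 in HEY1-WT KI. Mdm2 thus stood below Trp53 in all HEY1-3KR KI libraries and above it in all HEY1-WT KI libraries. The mean ratios were 0.769 ± 0.0969 in HEY1-3KR KI and 1.35 ± 0.0739 in HEY1-WT KI (SD, n = 3 each). This ratio was chosen after the values of both genes were seen. It is given without a test because the separation of Mdm2 fixes its order. Mdm4, the close relative of Mdm2 that masks the activation domain of p53 without destroying it, averaged 4.21 ± 0.25 FPKM in HEY1-3KR KI and 3.78 ± 0.23 FPKM in HEY1-WT KI, overlapped and did not pass (log2 fold change 0.12 ± 0.0588, limma adjusted p = 0.109).

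Ccng1 (chromosome 11, 40748552 to 40755309, minus strand) encodes cyclin G1, which brings the phosphatase PP2A to Mdm2 and so takes part in the feedback on p53. With 79.6, 82.3 and 77.6 FPKM in HEY1-3KR KI libraries and 144.0, 147.1 and 148.9 FPKM in HEY1-WT KI libraries, it was the most abundant of the 10 genes by mean FPKM in both genotypes. The libraries of a genotype lay close together and the groups were far apart, with means of 79.8 ± 2.37 FPKM in HEY1-3KR KI and 146.7 ± 2.49 FPKM in HEY1-WT KI (SD, n = 3 each). Its log2 fold change was -0.87 ± 0.0343 (limma adjusted p = 1.79e-07). Its relative Ccng2, which is not a standard p53 target, averaged 4.52 ± 0.299 FPKM in HEY1-3KR KI and 3.90 ± 0.541 FPKM in HEY1-WT KI and did not pass (limma adjusted p = 0.0993), although it did without HEY1-WT KI replicate 1 (0.0132).

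Btg2 (chromosome 1, 134074865 to 134079155, minus strand), an antiproliferative protein that links mRNAs to the deadenylase complex CCR4-NOT, was the target with the smallest difference. It read 13.9, 14.5 and 14.5 FPKM in HEY1-3KR KI libraries, against 13.5, 13.6 and 14.4 FPKM in HEY1-WT KI libraries. The groups overlapped, and the log2 fold change was 0.05 ± 0.0413 (limma adjusted p = 0.355; 0.211 to 0.816 over the 14 alternatives). Among its family, Btg1 rose 1.23-fold to 9.05 ± 0.413 FPKM in HEY1-3KR KI, against 7.38 ± 0.35 FPKM in HEY1-WT KI (limma adjusted p = 0.00241). Tob1, another antiproliferative member, averaged 5.66 ± 0.981 FPKM in HEY1-3KR KI and 8.70 ± 0.337 FPKM in HEY1-WT KI (limma adjusted p = 0.00102). Tob2 averaged 7.27 ± 0.572 FPKM in HEY1-3KR KI and 8.30 ± 0.48 FPKM in HEY1-WT KI (limma adjusted p = 0.045), a call lost in 5 of 14 alternatives, among them leaving out HEY1-3KR KI replicate 1 or 3 or HEY1-WT KI replicate 2 or 3 (adjusted p up to 0.144), and Btg3 did not pass (adjusted p = 0.769).

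Bax (chromosome 7, 45461695 to 45466903, minus strand), which permeabilises mitochondria during apoptosis, read 56.9, 52.8 and 59.7 FPKM in HEY1-3KR KI libraries, against 90.8, 87.6 and 86.3 FPKM in HEY1-WT KI libraries. The groups were well separated. The means were 56.5 ± 3.48 FPKM in HEY1-3KR KI and 88.2 ± 2.35 FPKM in HEY1-WT KI (SD, n = 3 each), a log2 fold change of -0.64 ± 0.0477 (limma adjusted p = 7.63e-06). In GENCODE vM21, 192 exon bases of Bax are shared with the gene model Gm45808 on the same strand, which read at most 0.141 FPKM in any library. Bak1, the other executioner of the same step, was 65.2 ± 1.31 FPKM in HEY1-3KR KI and 61.8 ± 1.39 FPKM in HEY1-WT KI and did not pass although the groups did not overlap (limma adjusted p = 0.0859), and neither did Bok, a further pore-forming relative (adjusted p = 0.177).

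The protective BCL2 family gene Bcl2l1, which encodes BCL-XL, fell together with Bax, to 32.1 ± 0.533 FPKM in HEY1-3KR KI, against 58.4 ± 1.05 FPKM in HEY1-WT KI (log2 fold change -0.84 ± 0.0331, limma adjusted p = 1.79e-07). The ratio of Bax to Bcl2l1 was 1.74, 1.67 and 1.86 in HEY1-3KR KI libraries and 1.53, 1.49 and 1.51 in HEY1-WT KI libraries. It was thus higher in each HEY1-3KR KI library although both genes were lower. This ratio was chosen after the values were seen and is given without a test, because the ranges of both genes fix its order. Of 14 tested BCL2 family members other than Bax, 4 were higher, 4 were lower and 6 did not pass, with a median log2 fold change of -0.01, beside 53.2% of all tested genes called in either direction. The lower ones were Bcl2l1, the BH3-only killers Bid (6.42 ± 0.203 FPKM in HEY1-3KR KI, 11.5 ± 0.144 FPKM in HEY1-WT KI) and Bbc3, and Pmaip1. Among the higher ones, the BH3-only gene Bmf averaged 4.04 ± 0.181 FPKM in HEY1-3KR KI and 1.43 ± 0.371 FPKM in HEY1-WT KI, and Bcl2a1b, known from myeloid cells, averaged 48.7 ± 3.57 FPKM in HEY1-3KR KI and 29.4 ± 1.83 FPKM in HEY1-WT KI. Bcl2a1b and Bcl2a1d are near-identical copies between which reads could have been split, so their single values are uncertain. The balance of this list depended on scaling. Bad and Bcl2l2, which did not pass, were called lower with median-of-ratios scaling (limma adjusted p = 0.0274 and 0.0497) and with quantile normalization (0.0213 and 0.0397). Bcl2l11, among the higher ones, lost its call with quantile normalization (limma adjusted p = 0.068).

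Eda2r (chromosome X, 97333837 to 97377234, minus strand), a TNF receptor family member that binds the ectodysplasin form EDA-A2, showed the largest difference of the 10 genes on the log2 scale. It read 5.02, 4.75 and 4.78 FPKM in HEY1-3KR KI libraries, against 9.79, 10.3 and 10.4 FPKM in HEY1-WT KI libraries. The groups did not overlap, the HEY1-3KR KI mean was 0.477 of the HEY1-WT KI mean, and the log2 fold change was -0.93 ± 0.0457 (limma adjusted p = 6.16e-07). Eda, which encodes its ligand, averaged 0.783 ± 0.129 FPKM in HEY1-3KR KI and 0.869 ± 0.0185 FPKM in HEY1-WT KI, below the filter. Tnfrsf19, a receptor of the same branch of the family, was 2.32 ± 0.14 FPKM in HEY1-3KR KI and 0.959 ± 0.0887 FPKM in HEY1-WT KI (log2 fold change 0.76 ± 0.0622, limma adjusted p = 1.31e-05), while Edar reached at most 0.0677 FPKM.

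Phlda3 (chromosome 1, 135766085 to 135769134, plus strand) encodes a small pleckstrin-homology protein that competes with the survival kinase AKT for membrane lipids. It read 55.8, 60.7 and 85.7 FPKM in HEY1-3KR KI libraries, against 138.6, 106.0 and 82.1 FPKM in HEY1-WT KI libraries. The groups overlapped, since HEY1-3KR KI replicate 3 was above HEY1-WT KI replicate 3. The means were 67.4 ± 16.0 FPKM in HEY1-3KR KI and 108.9 ± 28.3 FPKM in HEY1-WT KI (SD, n = 3 each), a log2 fold change of -0.68 ± 0.197 (limma adjusted p = 0.0184). This call was lost without HEY1-3KR KI replicate 1 (adjusted p = 0.0674), without HEY1-3KR KI replicate 2 (0.0652) and without HEY1-WT KI replicate 1 (0.0517), with a range of 0.00412 to 0.0674 over the 14 alternatives.

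The spread of Phlda3 within genotypes, an SD of 0.349 on the log2(FPKM + 1) scale, exceeded that of 99.1% of tested genes, whose median was 0.0645, and the other 9 genes lay between 0.0345 and 0.0858. Its transcripts are also rich in G and C, at 62.6%, above 98.8% of tested genes. By library, Phlda3 deviated from its genotype mean by -0.371 to 0.377 on the same scale. The median deviation of the tenth of genes richest in G and C was -0.0246 to 0.0207. The part of GC in the spread of Phlda3 was not tested. A correction for GC, chosen after the data were seen, left the log2 fold change of Phlda3 at -0.70 (limma adjusted p = 0.00708). Phlda1, a family member outside the core p53 response, did not pass, at 41.9 ± 0.846 FPKM in HEY1-3KR KI and 38.5 ± 4.03 FPKM in HEY1-WT KI (limma adjusted p = 0.157), and Phlda2 was at most 0.0464 FPKM.

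Trp53inp1 (chromosome 4, 11156441 to 11174379, plus strand), a stress protein that assists p53 in the nucleus and serves autophagy in the cytoplasm, read 6.47, 6.72 and 6.25 FPKM in HEY1-3KR KI libraries, against 12.6, 12.5 and 13.0 FPKM in HEY1-WT KI libraries. The groups were well apart, with means of 6.48 ± 0.237 FPKM in HEY1-3KR KI and 12.7 ± 0.271 FPKM in HEY1-WT KI (SD, n = 3 each). Its log2 fold change was -0.87 ± 0.0434 (limma adjusted p = 6.72e-07). Trp53inp2, the related autophagy gene that is not a p53 target, was 14.6 ± 0.391 FPKM in HEY1-3KR KI and 14.3 ± 0.588 FPKM in HEY1-WT KI and did not pass (limma adjusted p = 0.608).

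Zmat3 (chromosome 3, 32334792 to 32365665, minus strand), a zinc-finger RNA-binding protein that regulates splicing downstream of p53, read 5.45, 5.66 and 5.94 FPKM in HEY1-3KR KI libraries, against 9.95, 10.4 and 9.65 FPKM in HEY1-WT KI libraries. No HEY1-3KR KI library reached the level of a HEY1-WT KI library, and the log2 fold change was -0.72 ± 0.0485 (limma adjusted p = 4e-06).

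Sesn1 (chromosome 10, 41810574 to 41908436, plus strand), a sestrin that restrains the growth kinase complex mTORC1 when amino acids are scarce and is also a target of FOXO factors, went the other way. It read 8.06, 7.37 and 7.58 FPKM in HEY1-3KR KI libraries, against 4.89, 5.03 and 4.88 FPKM in HEY1-WT KI libraries. All HEY1-3KR KI libraries were above all HEY1-WT KI libraries, and the log2 fold change was 0.55 ± 0.0476 (limma adjusted p = 1.94e-05). Sesn2, a sestrin that responds to p53 and to amino acid stress, fell to 22.4 ± 0.697 FPKM in HEY1-3KR KI, against 29.9 ± 1.48 FPKM in HEY1-WT KI (log2 fold change -0.40 ± 0.0452, limma adjusted p = 9.29e-05). The ratio of Sesn1 to Sesn2 FPKM, chosen after the values were seen and given without a test because the separation of both genes fixes its order, was 0.342 ± 0.0066 in HEY1-3KR KI and 0.165 ± 0.00918 in HEY1-WT KI (SD, n = 3 each). Sesn3 did not pass, at 1.04 ± 0.0899 FPKM in HEY1-3KR KI and 1.05 ± 0.0245 FPKM in HEY1-WT KI (limma adjusted p = 0.921).

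**Figure D2:**
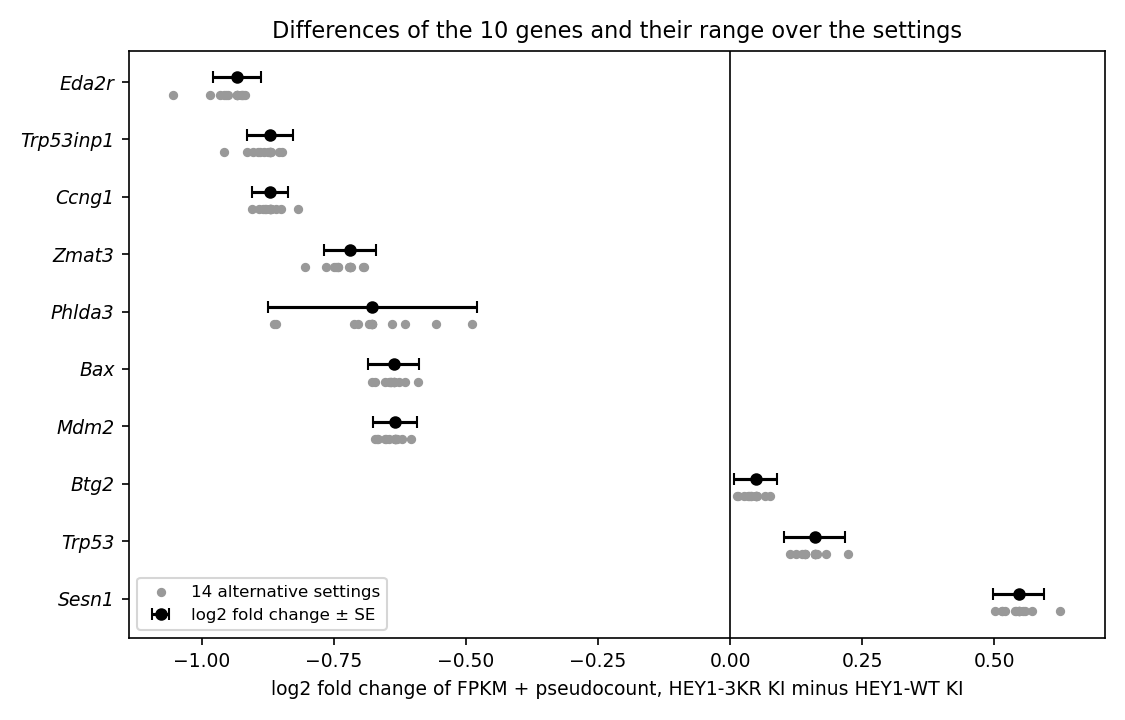
Log2 fold change of HEY1-3KR KI minus HEY1-WT KI for each gene (black, with SE, limma on 3 libraries per genotype) and its values under the 14 alternative settings (grey). The 7 lower genes lie between -0.93 and -0.63 and keep their side of 0 in every setting, Phlda3 has the widest SE, and Btg2 and Trp53 lie close to 0.

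The order of the 10 genes by mean FPKM, a scale per transcript length, differed between the genotypes. In HEY1-3KR KI it ran Ccng1, Phlda3, Bax, Trp53, Mdm2, Btg2, Sesn1, Trp53inp1, Zmat3 and Eda2r. In HEY1-WT KI it ran Ccng1, Phlda3, Bax, Mdm2, Trp53, Btg2, Trp53inp1, Eda2r, Zmat3 and Sesn1, so that Sesn1 was the lowest. Neighbours whose libraries overlapped were Ccng1 with Phlda3 and Phlda3 with Bax in HEY1-3KR KI, and Phlda3 with Bax and Eda2r with Zmat3 in HEY1-WT KI.

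Of the tested paralogues of the 10 genes, 2 of 13 were higher in HEY1-3KR KI, Tnfrsf19 and Btg1, 3 were lower, Sesn2, Tob1 and Tob2, and 8 did not pass, beside 29.9% higher and 23.4% lower among all tested genes. Their median log2 fold change was 0.03, against 0.02 over all tested genes. The difference between the paralogues and the 10 genes was not tested. Tnfrsf19 was below 1 FPKM in HEY1-WT KI replicates 1 and 3, so it passed the filter only through its HEY1-3KR KI libraries.

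Beyond the 10 genes, 52 other genes described as p53 targets in mouse or human were listed, of which 47 were tested. In HEY1-3KR KI 26 were lower (23.4% of all tested genes), 9 were higher (29.9%) and 12 did not pass, with a median log2 fold change of -0.21. Cdkn1a, which encodes the cell cycle inhibitor p21 and is the best known p53 target, read 81.6, 77.6 and 80.0 FPKM in HEY1-3KR KI libraries, against 106.7, 102.9 and 107.0 FPKM in HEY1-WT KI libraries. The groups did not overlap, and its log2 fold change was -0.40 ± 0.0342 (limma adjusted p = 1.7e-05), smaller in size than those of the 7 lower genes above.

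Of 5 tested genes of cell cycle arrest, Cdkn1a, Plk3 and Gadd45a fell (23.4% of all tested genes). Sfn rose (29.9%) and Plk2 did not pass. Plk3, a stress-responsive polo kinase, averaged 16.4 ± 0.134 FPKM in HEY1-3KR KI and 28.2 ± 0.561 FPKM in HEY1-WT KI (limma adjusted p = 4.6e-07). Gadd45a, a DNA damage-induced growth inhibitor, averaged 35.5 ± 3.23 FPKM in HEY1-3KR KI and 50.6 ± 2.74 FPKM in HEY1-WT KI (adjusted p = 2.31e-04). Sfn, the 14-3-3 protein sigma known from epithelial cells, averaged 24.1 ± 2.09 FPKM in HEY1-3KR KI and 13.5 ± 1.63 FPKM in HEY1-WT KI (adjusted p = 7.09e-05). Most markers of epithelial, endothelial, macrophage and fibroblast cells were also higher in HEY1-3KR KI, and their part in the Sfn difference was not tested.

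Of 10 tested genes of cell death 7 fell (23.4% of all tested genes), none rose (29.9%), and Fas, Perp and Apaf1 did not pass. Tnfrsf10b, the mouse TRAIL death receptor, averaged 5.83 ± 0.131 FPKM in HEY1-3KR KI and 10.0 ± 0.13 FPKM in HEY1-WT KI. Aen, an apoptosis-enhancing nuclease, averaged 16.8 ± 0.355 FPKM in HEY1-3KR KI and 24.9 ± 0.521 FPKM in HEY1-WT KI. Bbc3, which encodes the BH3-only killer PUMA, averaged 4.37 ± 0.521 FPKM in HEY1-3KR KI and 7.37 ± 0.155 FPKM in HEY1-WT KI, and Ei24 16.8 ± 0.548 FPKM in HEY1-3KR KI and 21.1 ± 0.405 FPKM in HEY1-WT KI (limma adjusted p at most 1.76e-04 for these 4).

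Of 6 tested repair genes, the translesion polymerase Polk (3.67 ± 0.261 FPKM in HEY1-3KR KI, 6.93 ± 0.389 FPKM in HEY1-WT KI), the excision nuclease Ercc5 (4.64 ± 0.273 FPKM in HEY1-3KR KI and 7.45 ± 0.0785 FPKM in HEY1-WT KI) and the damage sensor Xpc (4.37 ± 0.143 FPKM in HEY1-3KR KI and 5.28 ± 0.336 FPKM in HEY1-WT KI) fell. Polh, another translesion polymerase, rose to 8.88 ± 0.231 FPKM in HEY1-3KR KI, against 7.15 ± 0.189 FPKM in HEY1-WT KI, and 2 did not pass (limma; adjusted p at most 0.00751 for the 4 that did). Of 8 tested genes of metabolism and autophagy 4 fell and 3 rose. Among the lower ones, Steap3 kept its call in 6 of the 13 alternatives that tested it and Sco2 in 12 of 14. Among the higher ones, Ddit4 kept its call in 11 of 14. Tigar, which did not pass, was called lower with quantile normalization (limma adjusted p = 0.0415). The counts of this group and of the repair genes stand beside 23.4% lower and 29.9% higher among all tested genes. Cpt1c, a carnitine palmitoyltransferase-like protein, averaged 4.71 ± 0.0887 FPKM in HEY1-3KR KI and 9.92 ± 0.262 FPKM in HEY1-WT KI, and Fdxr, ferredoxin reductase, 5.47 ± 0.258 FPKM in HEY1-3KR KI and 8.15 ± 0.156 FPKM in HEY1-WT KI. Dram1, a lysosomal autophagy gene, was higher at 13.2 ± 0.455 FPKM in HEY1-3KR KI, against 7.83 ± 0.135 FPKM in HEY1-WT KI, and Prkab1, a subunit of the energy sensor AMPK, at 17.5 ± 1.21 FPKM in HEY1-3KR KI and 14.5 ± 0.332 FPKM in HEY1-WT KI.

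Secreted products went both ways. Thbs1, the matrix protein thrombospondin 1, was 2.94-fold higher, at 439.2 ± 19.1 FPKM in HEY1-3KR KI and 149.6 ± 4.83 FPKM in HEY1-WT KI (log2 fold change 1.55 ± 0.0414, limma adjusted p = 2.45e-08). Igfbp3, which binds insulin-like growth factors, was 3.20-fold higher. Kitl, the stem cell factor, fell to 28.9 ± 0.883 FPKM in HEY1-3KR KI, against 45.2 ± 0.724 FPKM in HEY1-WT KI. Gdf15, a stress cytokine, fell to 23.0 ± 1.48 FPKM in HEY1-3KR KI, against 36.1 ± 2.81 FPKM in HEY1-WT KI, while Tgfa did not pass. Of 12 further targets 6 fell (23.4% of all tested genes), 2 rose (29.9%) and 4 did not pass. Zfp365, a zinc-finger protein of genome stability, averaged 3.65 ± 0.0761 FPKM in HEY1-3KR KI and 7.85 ± 0.2 FPKM in HEY1-WT KI, Slc19a2, a thiamine transporter, 9.12 ± 0.445 FPKM in HEY1-3KR KI and 17.9 ± 1.88 FPKM in HEY1-WT KI, and Abhd4, a lipid hydrolase, 30.6 ± 1.2 FPKM in HEY1-3KR KI and 54.5 ± 2.2 FPKM in HEY1-WT KI. Ndrg1, also known as a hypoxia-responsive gene, averaged 21.9 ± 1.02 FPKM in HEY1-3KR KI and 11.2 ± 0.153 FPKM in HEY1-WT KI.

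**Figure D3:**
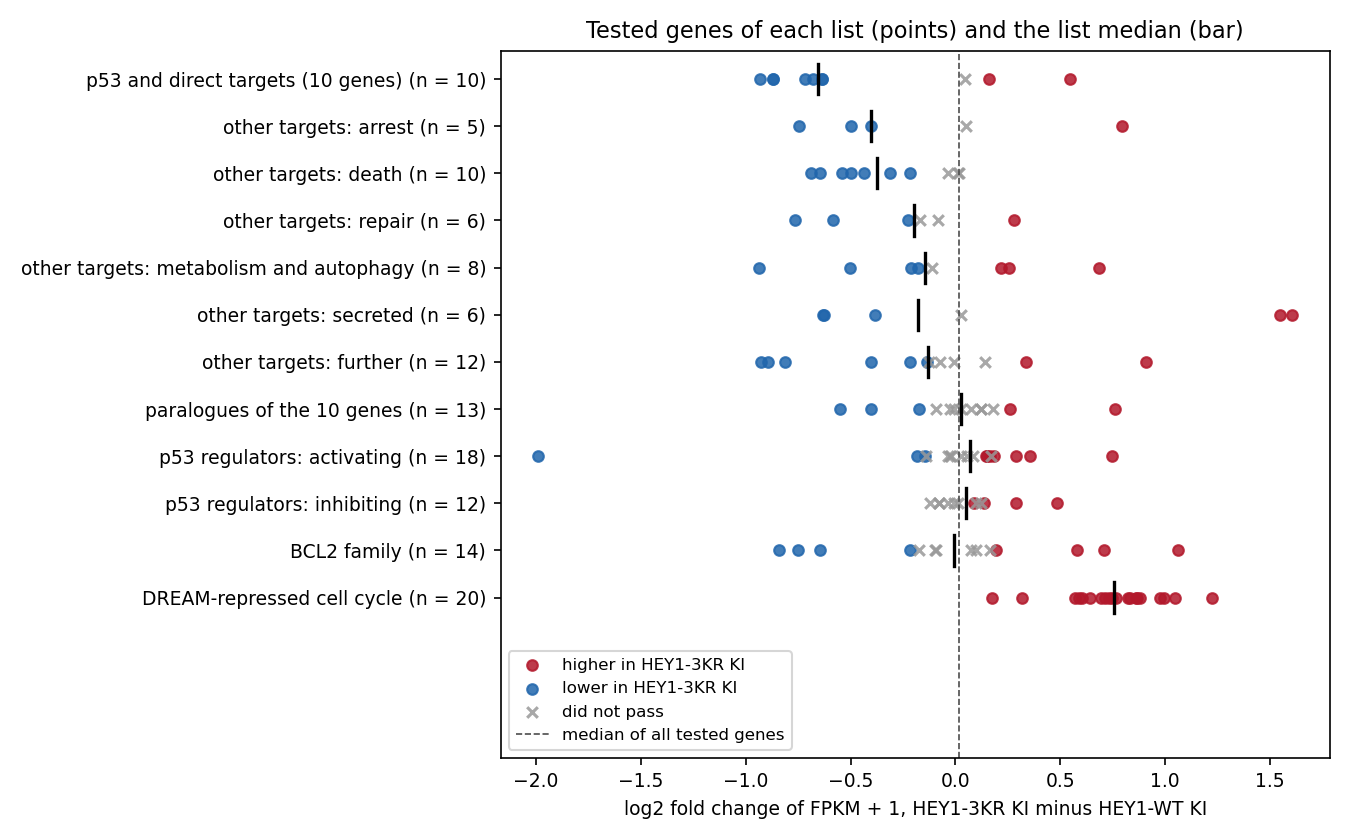
Log2 fold change of every tested gene of each list (HEY1-3KR KI minus HEY1-WT KI, limma on 3 libraries per genotype), red where higher, blue where lower and grey where the gene did not pass; black bars are list medians and the dashed line is the median of all tested genes, 0.02. The medians of the 10 genes and of the 6 groups of other p53 targets lie below the dashed line, those of paralogues and regulators lie near it, and all 20 genes of the DREAM-repressed list lie above it.

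Among the genes that act on p53, Cdkn2a showed the largest difference. Its ARF product binds Mdm2 and shields p53, and its other product is the cell cycle inhibitor p16, and the gene-level value does not separate them. Cdkn2a read 2.85, 2.62 and 3.52 FPKM in HEY1-3KR KI libraries, against 17.2, 12.8 and 14.7 FPKM in HEY1-WT KI libraries, with no overlap and a log2 fold change of -1.99 ± 0.11 (limma adjusted p = 1.23e-06). Of the 30 tested regulators 11 were higher, 3 were lower and 16 did not pass, with a median log2 fold change of 0.07, beside 29.9% higher and 23.4% lower among all tested genes. The number of higher regulators fell to 5 with median-of-ratios scaling and to 5 with quantile normalization, and it ranged from 5 to 8 when single libraries were left out.

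Ppp1r13b, which encodes ASPP1 and steers p53 towards apoptotic targets, averaged 6.48 ± 0.0711 FPKM in HEY1-3KR KI and 3.48 ± 0.478 FPKM in HEY1-WT KI. Its inhibitory relative Ppp1r13l, iASPP, averaged 6.03 ± 0.156 FPKM in HEY1-3KR KI and 4.03 ± 0.28 FPKM in HEY1-WT KI. The checkpoint kinase Chek1 averaged 3.68 ± 0.0409 FPKM in HEY1-3KR KI and 2.66 ± 0.16 FPKM in HEY1-WT KI, and the deacetylase Hdac1 27.6 ± 2.07 FPKM in HEY1-3KR KI and 22.4 ± 0.443 FPKM in HEY1-WT KI. Usp10, a deubiquitinase that can stabilise p53, fell to 9.43 ± 0.171 FPKM in HEY1-3KR KI, against 10.8 ± 0.134 FPKM in HEY1-WT KI (limma adjusted p = 0.00367). The calls of the p53 methyltransferase Kmt5a and the deacetylase Sirt1 (limma adjusted p = 0.0481 and 0.0486) were lost with either scaling between libraries, and when HEY1-WT KI replicate 1 or 2 or any single HEY1-3KR KI library was left out, with adjusted p up to 0.211 and 0.299.

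**Figure D4:**
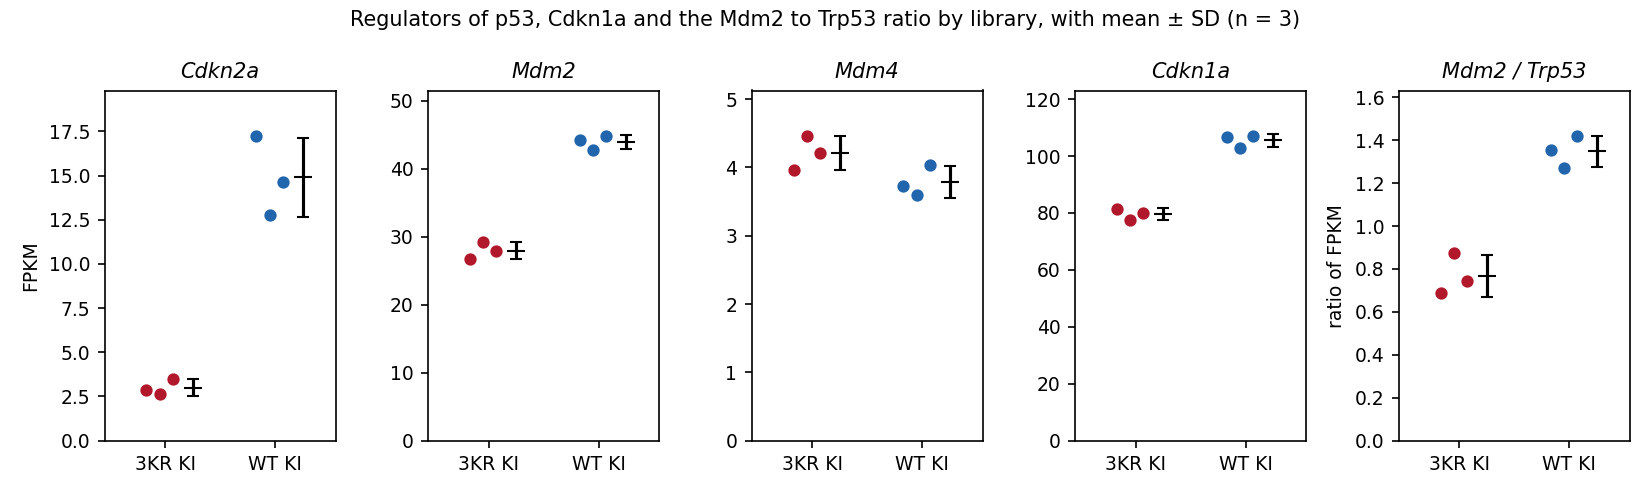
FPKM of Cdkn2a, Mdm2, Mdm4 and the p53 target Cdkn1a, and the ratio of Mdm2 to Trp53 FPKM, in each library (red HEY1-3KR KI, blue HEY1-WT KI) with mean and SD (n = 3 libraries). Cdkn2a, Mdm2, Cdkn1a and the ratio do not overlap and are lower in HEY1-3KR KI, and Mdm4 overlaps.

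p53 lowers many cell cycle genes indirectly, through p21 and the repressor complex DREAM. All 20 listed genes of this kind were higher in HEY1-3KR KI (29.9% of all tested genes), with a median log2 fold change of 0.76. Plk1, a mitotic kinase, averaged 56.6 ± 1.02 FPKM in HEY1-3KR KI and 23.6 ± 0.627 FPKM in HEY1-WT KI, and Ccna2, Cdc20 and Mcm5 were 2.04-fold, 1.99-fold and 1.82-fold higher. These transcripts also follow the share of cycling cells, which was not measured here.

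In bulk RNA, fewer cells of a type and less RNA per cell cannot be told apart, and these libraries held transcripts of several cell types. Hey1 itself was 5.27 ± 0.422 FPKM in HEY1-3KR KI and 2.20 ± 0.0426 FPKM in HEY1-WT KI, and since both genotypes carried a knock-in whose transcript may or may not be counted there, this does not check the labels. Over all tested genes, 29.9% were called higher and 23.4% lower in HEY1-3KR KI, and the marker counts below stand beside these shares. All 12 endothelial markers were detected and 11 were higher in HEY1-3KR KI, where they made up 0.158% to 0.166% of summed FPKM, against 0.0955% to 0.102% in HEY1-WT KI. By the mean of all 6 libraries Cdh5 and Cldn5 were the highest, at 132.5 and 66.5 FPKM in HEY1-3KR KI and 77.7 and 33.3 FPKM in HEY1-WT KI. Macrophage markers were higher in 12 of 12 cases and made up 1.94% to 2.04% in HEY1-3KR KI and 1.55% to 1.56% in HEY1-WT KI. Lyz2 and C1qb, the highest by the mean of all 6 libraries, averaged 3482 and 471.9 FPKM in HEY1-3KR KI and 3138 and 207.1 FPKM in HEY1-WT KI. The call of Lyz2 was lost without a filter and with quantile normalization (limma adjusted p = 0.123). That of Cd68 was lost without a filter, with median-of-ratios scaling (0.0587), and without replicate 1 of either genotype (limma adjusted p up to 0.0924). Of 6 tested fibroblast markers all 6 were higher (0.421% to 0.429% in HEY1-3KR KI and 0.216% to 0.223% in HEY1-WT KI), with Col1a1 and Col1a2 the most abundant. Tcf21, among these 6, was below 1 FPKM in every HEY1-WT KI library. It passed the filter only through HEY1-3KR KI and so could not have been counted as lower. Of 10 epithelial markers 8 were higher (0.161% to 0.241% in HEY1-3KR KI and 0.0451% to 0.0853% in HEY1-WT KI). Epcam and Nkx2-1, both among these 8, likewise passed the filter only through HEY1-3KR KI. Of the most abundant epithelial pair, Sftpc averaged 106.0 ± 13.4 FPKM in HEY1-3KR KI and 19.7 ± 5.42 FPKM in HEY1-WT KI, and Scgb1a1 overlapped and did not pass (limma adjusted p = 0.0568), though it did without replicate 3 of either genotype. The largest folds of the epithelial, macrophage and endothelial lists were those of Sftpb, Itgam and Vwf. These were 17.5-fold, 5.18-fold and 3.55-fold higher in HEY1-3KR KI, with the same call under all 14 alternatives. Smooth muscle and pericyte markers had 1 higher and 3 lower of 7 tested (0.407% to 0.413% in HEY1-3KR KI and 0.403% to 0.408% in HEY1-WT KI). The most abundant, Acta2 and Tagln, did not pass, but Acta2 was called lower with quantile normalization (limma adjusted p = 0.0168). All 6 lymphocyte markers, led by Cd79a and Nkg7, were at most 0.174 FPKM. For 3 against 3 libraries the smallest possible exact two-sided permutation p is 0.1. This permutation p was 0.1 for the shares of endothelial, macrophage, fibroblast and epithelial markers, and 0.2 for smooth muscle and pericyte markers. The part of these cell types in the differences of the p53 genes was not tested.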

How the data were processed

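The authors deposited 1 table of FPKM with a column for each of the 6 libraries and 17463 entries, as its header shows. Of upstream steps, alignment tool HISAT2 2.1.0 with build mm10, assembler StringTie 1.3.3b, and FastQC 0.19.7 and SAMtools 1.9 are listed in the submitters' processing notes; for annotation and strand the entry is: not given in the sources used here. Of 12 symbols on several entries, the entry of highest mean was kept. FPKM shows no read totals. From 2396 single-transcript genes, 417 to 468 low values per library were compared with whole fragments over many trial depths. At the best trial depth 45.6% to 57.2% of them lay within 0.1 of a whole fragment. Evenly spread values would give 20% at a single depth, which is not the chance level of the best one. This check does not settle the depth, and no count test was run. No 2 libraries were identical. Libraries correlated at 0.994 to 0.996 within and 0.960 to 0.964 between genotypes.

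The genes that reached 1 FPKM in 3 or more libraries were tested with limma 3.58.1 in R 4.3.3 (log2(FPKM + 1), variance trend, two-sided, Benjamini-Hochberg). The fit was first checked on simulated data in which far fewer genes were changed than were called here, so that check does not cover this case. Folds are ratios of mean FPKM. Log2 fold changes understate changes of low genes. Of 202 list entries 2 had no row. GC came from GENCODE vM21, and positions and promoters from RefSeq (GRCm38.p6). Python 3.11.15, pandas 2.3.3, numpy 2.4.6 and matplotlib 3.10.9 were used. The genes and lists were chosen with earlier results of these data known. Named were the 10 genes, Cdkn1a, Cdkn2a, Mdm4, Hey1, tested paralogues, the 4 smallest p of each group of a list and the 2 markers of each cell type with the highest mean over all libraries. Listed genes outside that rule (such as Plk2, Fas, Perp, Apaf1, Tgfa and Pmaip1) and Cd68, Tcf21, Epcam, Nkx2-1, Sftpb, Itgam, Vwf, Eda and Gm45808 were named after their values were seen.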

Additional observations from a re-analysis of the deposited data

How the results depend on the processing

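Of the 10 genes, 8 had the same call under all 14 alternatives, and all 10 kept their direction; the GC correction among them was chosen after seeing the data. Trp53 lost its call without a filter (log2 fold change 0.16), with median-of-ratios scaling (0.12), quantile normalization (0.14), no variance trend (0.16), the replicate block (0.16) and the GC correction (0.14), and ranged from 0.11 to 0.22 when a library was left out. Phlda3 lost its call without a filter (-0.68) and ranged from -0.86 to -0.49 over the libraries left out. Accordingly 1 gene in place of 2 was higher under those 6 settings, and 1 to 2 when a library was left out. With a mean of at least 5 FPKM required, fewer genes were tested (7195) and called (4055), and 1 paralogue in place of 2 was higher. Of the regulators, 7 in place of 11 were higher without a filter, 5 with median-of-ratios scaling, 5 with quantile normalization, 6 with the GC correction and 5 to 8 when a library was left out, and 5 in place of 3 were lower with quantile normalization, 2 to 5 when a library was left out. Why these calls changed was not tested. Same-numbered libraries deviated from their group means with correlations of -0.188, 0.253 and -0.273. These values have no common sign, and with 3 libraries per genotype they cannot exclude a shared preparation or batch. The replicate block called 6140 genes in place of 6084. Scaling moved the median of all genes by at most 0.0416 on the log2 scale (-0.0416 with quantile normalization). Without read totals, counting error could not be given.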

Other observations

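Cdkn2b, the neighbour of Cdkn2a that encodes the cell cycle inhibitor p15 and is not a p53 target, read 20.1, 18.7 and 20.4 FPKM in HEY1-3KR KI libraries, against 36.5, 33.1 and 33.0 FPKM in HEY1-WT KI libraries (log2 fold change -0.76 ± 0.0513, limma adjusted p = 3.93e-06). Wrap53, the gene next to Trp53 on the opposite strand, averaged 7.30 ± 0.58 FPKM in HEY1-3KR KI and 6.19 ± 0.517 FPKM in HEY1-WT KI (log2 fold change 0.21 ± 0.0704, limma adjusted p = 0.0352), and in GENCODE vM21 no exon base of Trp53 was shared with another gene. Xiap, an inhibitor of caspases that acts after Bax, averaged 8.91 ± 0.223 FPKM in HEY1-3KR KI and 7.27 ± 0.316 FPKM in HEY1-WT KI (limma adjusted p = 0.00137). These genes were looked up after the values of their neighbours or partners were seen.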
